A study of Rattus norvegicus with 15 samples.

Results

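The comparison of old with young thigh muscle in the rat rests on 10 of the 15 arrays of the study, 5 from old rats of 30 months and 5 from young rats of 5 months. All were male Fisher-344 rats, an inbred strain, kept singly on standard chow with no treatment, and RNA came from whole vastus lateralis, the outer head of the quadriceps. The other 5 arrays, from middle-aged rats of 17 months, entered the fit and are given beside some results. Arrays were assigned to an age by their labels, and each replicate number was taken as 1 animal. Values are background-corrected, quantile normalized log2 intensities, given for replicates 1 to 5 in that order, and differences are old minus young on the log2 scale with their SE. A gene was called changed when its limma p-value, adjusted over all tested genes, was under 0.05. Where the call of a gene named from the lists did not hold on leaving out 1 array, that array is named beside it. The counts per list also moved when single arrays were left out, and only some of those arrays are named. The counts of the families formed by symbol, given last, were not recounted with arrays left out.

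Skeletal muscle loses fibres and motor innervation late in life, a state called sarcopenia, and the fibres that remain are in part denervated and reinnervated. Fibroblasts in the connective tissue between fibres make the collagens of the matrix, which turn over slowly in adults and fast during growth. A rat of 5 months is a young adult, and one of 30 months is near the end of its life span.

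Before normalization the median intensity was 93 to 100 on old arrays and 108 to 120 on young arrays, so the ages did not overlap, and 9755 to 10078 probes were detected in old muscle, against 9294 to 10132 in young muscle. Old replicate 5 stood apart, correlating with the other 14 arrays at 0.945 to 0.968, and it was the lowest old array for 70 of the 90 genes that fell at least 2-fold. Values without it are given beside some of the results it moved. Of 13 tested markers of muscle fibres, among them Acta1, Ckm and Myh4, 12 did not pass the test and their median difference was 0.0606. A whole muscle holds several cell types, and fewer cells of a type cannot be told apart from less RNA per cell. The BeadChip that carried each array is not given in the sources used here, so its part was not tested.

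Of 10021 genes tested, 829 were called (8.27%), with 386 higher (3.85%) and 443 lower (4.42%) in old muscle. At least 2-fold changes made up 154 of these (1.54%), 64 higher and 90 lower. The median difference over all genes was 0.00015, and 50% lay below 0. Counts of called genes in the groups below are to be read beside the shares over all genes, 8.27% called, 3.85% higher and 4.42% lower. The arrays of the ages did not overlap for 721 genes (7.19%), of which 341 (3.4%) had all old arrays above and 380 (3.79%) all old arrays below the young ones. Whichever 1 of the 10 arrays was left out, 334 of the 829 were called. The count of calls fell most, to 431, when young replicate 4 was left out. It was 453 on leaving out young replicate 1, 517 for young replicate 5 and 537 for old replicate 2. Over all tested genes the median SD was 0.239 in old muscle and 0.198 in young muscle, and over the 64 genes higher at least 2-fold it was 0.798 in old muscle and 0.267 in young muscle. Over the 90 genes lower at least 2-fold it was 0.406 in old muscle and 0.352 in young muscle, and the old SD was the larger in 50 of the 90.

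The largest rise was in Klk1, tissue kallikrein, a serine protease that releases kinins from kininogen. It measured 7.35, 12.51, 9.41, 10.06 and 10.14 in old muscle, against 6.11, 6.03, 6.48, 5.63 and 6.03 in young muscle (difference 3.84 ± 0.72, adjusted p = 0.00563). Every old array lay above every young array, old replicate 2 was the highest and old replicate 1 the lowest of the old. Rnase3, a secreted ribonuclease of the eosinophil family, measured 7.92, 7.16, 6.11, 7.13 and 10.48 in old muscle, against 4.97, 5.02, 5.20, 4.91 and 4.95 in young muscle (2.75 ± 0.59, adjusted p = 0.0114). It was not detected on any young array, so that its level was at least 5.69-fold higher in old muscle. Old replicate 5 was the highest, and without it the bound was 3.55-fold and the difference 2.07 (adjusted p = 0.0041). Of the 10 tested genes of the kallikrein, kinin and ribonuclease group, these and Klk1c9 rose and none fell. The list holds 36 genes, of which 29 had a probe and 10 were tested. A member could pass the detection filter without a young array, as Rnase3 did, so the count does not stand for the group as a whole. Klk1c9 ranged over 5.84 to 8.97 in old muscle, against 5.53 to 5.96 in young muscle (1.49 ± 0.42, adjusted p = 0.0419), and its call was lost without old replicates 2, 4 or 5 or young replicates 1, 2, 3, 4 or 5, at an adjusted p of up to 0.0862. Rat kallikreins are close copies of each other, so a probe can bind more than 1 of them and these values are uncertain for that reason.

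Several of the strongest rises were uneven among the old rats. Of the 12 genes with a symbol and the largest rise, old replicate 1 was the lowest old array for 9, and old replicate 2 was the highest for 8. This order did not extend to all 64 genes higher at least 2-fold. Among those 64, old replicate 1 was the lowest for 20 and the highest for 18. Old replicate 2 was the highest for 19, and old replicate 5 was the lowest for 24 and the highest for 18. Tubb6, a beta-tubulin of regenerating fibres, measured 7.17, 10.61, 8.41, 10.08 and 10.49 in old muscle, against 7.13, 7.70, 7.74, 6.72 and 7.48 in young muscle (2.0 ± 0.58, adjusted p = 0.0451). Old replicates 2, 4 and 5 were high and old replicate 1 lay among the young arrays, and the call was lost without old replicates 2, 4 or 5 or young replicates 1, 2, 3, 4 or 5, at an adjusted p of up to 0.107. Slc51a, a subunit of a steroid and bile acid transporter, measured 4.97, 8.38, 5.85, 7.51 and 6.07 in old muscle, against 4.62, 4.78, 4.71, 4.71 and 4.57 in young muscle (1.88 ± 0.51, adjusted p = 0.0342) and was not detected on any young array, a rise of at least 2.47-fold. Its call was lost without old replicates 2 or 4 or young replicates 1, 2, 3, 4 or 5, at an adjusted p of up to 0.0725. Ankrd1, a stretch-responsive titin-binding protein, ranged over 8.01 to 10.61 in old muscle, against 5.75 to 8.40 in young muscle (2.43 ± 0.57, adjusted p = 0.019) and kept its call without any 1 array.

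**Figure D1:**
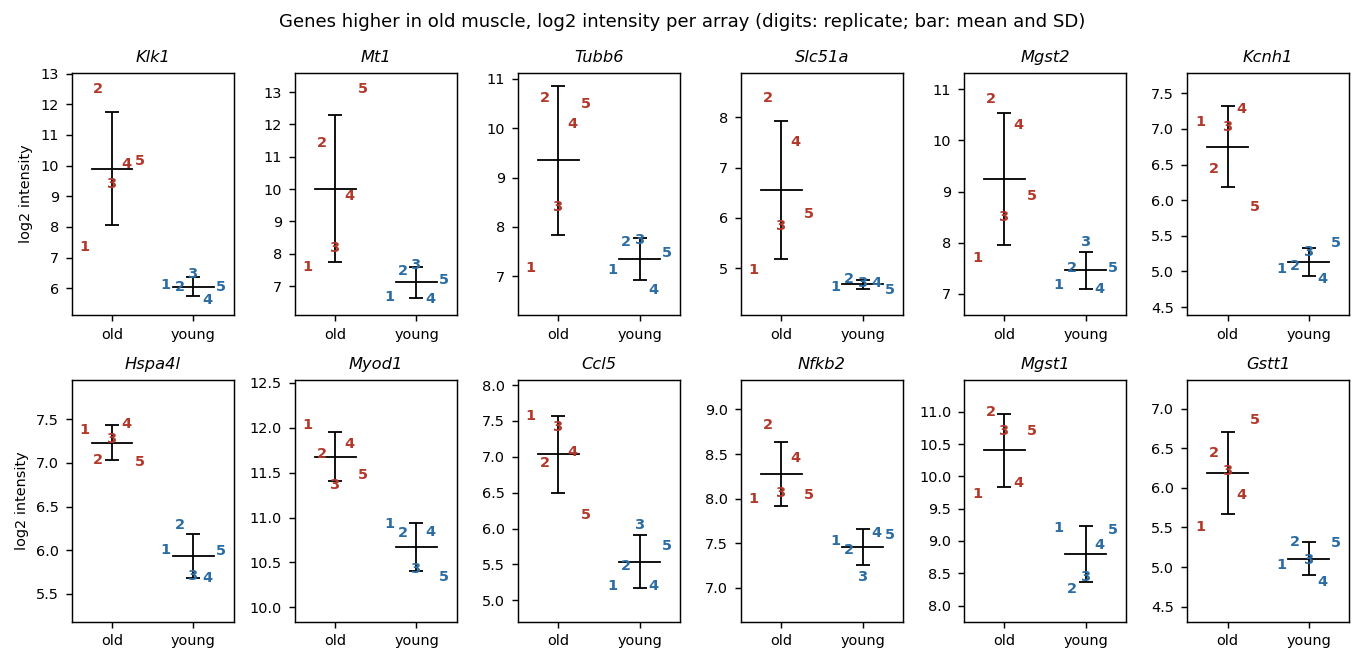
Log2 intensity per array of 12 genes called higher in old muscle, with old (red) left of young (blue). Digits mark the replicate, and bars the mean and SD (n = 5 each). Klk1, Mt1, Tubb6, Slc51a and Mgst2 spread widely over the old arrays with old replicate 1 lowest, while Hspa4l lay between 7.01 and 7.45 in old muscle and between 5.68 and 6.29 in young muscle.

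A low old replicate 1 and a high old replicate 2 were also seen in genes known to respond to loss of the nerve. Averaged over the 28 tested genes of the neuromuscular junction and denervation group and set relative to the young mean, the log2 level was -0.18, 0.99, -0.05, 0.48 and 0.69 on old replicates 1 to 5, with young arrays between -0.16 and 0.09. Old replicates 2, 4 and 5 lay above all young arrays. The group had 3 members higher and 2 lower, and a median of 0.343. It had 2 higher and 2 lower without old replicates 2 or 4 or young replicates 1, 2, 3, 4 or 5. The counts were 5 and 2 without old replicate 1, 6 and 2 without old replicate 3, and 3 and 3 without old replicate 5. Myog, the myogenic factor that rises after denervation, measured 7.54, 11.52, 8.33, 9.40 and 9.91 in old muscle, against 7.47, 7.48, 6.96, 7.46 and 7.54 in young muscle and did not pass the test (1.96 ± 0.66, adjusted p = 0.0774). Chrnd, the delta subunit of the acetylcholine receptor, measured 7.73, 12.44, 8.85, 11.27 and 9.69 in old muscle, against 8.39, 8.89, 8.52, 8.24 and 8.47 in young muscle (1.49 ± 0.71, adjusted p = 0.202), also short of the threshold. These 2 genes were chosen after their values were seen.

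Among members of the group that passed was Myod1, a master factor of the muscle lineage. It measured 12.03, 11.71, 11.36, 11.82 and 11.47 in old muscle, against 10.93, 10.83, 10.43, 10.84 and 10.34 in young muscle (1.01 ± 0.16, adjusted p = 0.00188), with every old array above every young array. Kcnn3, the calcium-activated potassium channel known from denervated muscle, ranged over 7.53 to 8.36 in old muscle, against 6.73 to 7.39 in young muscle (0.84 ± 0.17, adjusted p = 0.00893). Colq, the collagen tail that anchors acetylcholinesterase at the synapse, fell to 5.09 to 5.55 in old muscle, against 5.27 to 6.28 in young muscle (-0.78 ± 0.17, adjusted p = 0.0137). Hdac4, a histone deacetylase of the denervation response, fell as well (-0.57 ± 0.11, adjusted p = 0.00678). Kcnh1, a voltage-gated potassium channel outside this group that is known from fusing human myoblasts, measured 7.10, 6.44, 7.03, 7.28 and 5.91 in old muscle, against 5.04, 5.07, 5.27, 4.89 and 5.40 in young muscle (1.62 ± 0.22, adjusted p = 0.000801), with no overlap. Kcnh1 was detected on 5 old but only 2 young arrays, so the size of its difference is uncertain. Cdkn1a, a cell cycle inhibitor in the denervation list and the one called gene of the 39 in the p53, DNA damage and senescence group, measured 5.20, 8.15, 5.88, 6.87 and 7.09 in old muscle, against 4.97, 5.09, 4.97, 5.00 and 5.46 in young muscle (1.54 ± 0.45, adjusted p = 0.0458). It followed the order of Tubb6, and its call was lost without old replicates 2, 4 or 5 or young replicates 1, 2, 3, 4 or 5, at an adjusted p of up to 0.1.

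Collagens gave the largest falls. All 13 tested collagens were lower in old muscle, 9 of them called (69.2%), with a median of -1.19. Col1a1 and Col1a2, the chains of type I collagen, which gives muscle connective tissue its tensile strength, led the group. Col1a1 measured 6.65, 7.99, 6.81, 6.48 and 5.06 in old muscle, against 8.75, 11.41, 11.69, 8.86 and 11.22 in young muscle (-3.79 ± 0.60, adjusted p = 0.00188), a 13.8-fold fall with no overlap, and was not detected on 1 of the old arrays. Col1a2 measured 11.93, 12.47, 11.82, 11.40 and 9.78 in old muscle, against 13, 14.55, 14.37, 12.88 and 14.68 in young muscle (-2.42 ± 0.46, adjusted p = 0.00571). Young replicates 1 and 4 were the lowest young arrays for 11 of the 13 collagens, and old replicate 5 the lowest old array for 9. For Col1a1 the difference was -3.40 (adjusted p = 0.00324) without old replicate 5. For Col1a2 it was -1.99 (adjusted p = 0.0059) without old replicate 5. The group median without that array was -0.92, with 7 calls, and 5 of the 13 were called without young replicate 2 or 5.

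Other collagens moved the same way. Col3a1, the fibrillar partner of type I in compliant tissue, fell (-2.44 ± 0.50, adjusted p = 0.00955), and so did Col5a2 (-1.45 ± 0.30, adjusted p = 0.0103), a chain of the collagen that starts fibril assembly. Col15a1, of the basement membrane zone, measured 7.14 to 8.94 in old muscle, against 8.97 to 9.83 in young muscle (-1.19 ± 0.25, adjusted p = 0.0114) with no overlap. Col4a1, of the basement membrane itself, had a difference of -0.85 ± 0.23, adjusted p = 0.0337, and that call was lost without old replicates 1, 4 or 5 or young replicates 1, 2, 3 or 5, at an adjusted p of up to 0.07. The smallest differences were those of Col18a1 (-0.40) and Col27a1 (-0.22), neither past the threshold.

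Of the 23 tested genes that fold, trim or crosslink collagen, 3 fell and none rose, and the median was -0.292. Loxl2, an oxidase that crosslinks collagen, measured 5.87, 6.24, 6.08, 5.42 and 4.81 in old muscle, against 7.01, 8.45, 8.16, 6.76 and 7.78 in young muscle (-1.95 ± 0.33, adjusted p = 0.00298), with young replicates 1 and 4 again the lowest of the young. Sparc, a collagen-binding glycoprotein, fell to 9.27 to 11.16 in old muscle, against 11 to 12.44 in young muscle (-1.5 ± 0.35, adjusted p = 0.0177). Pcolce, the enhancer of procollagen cleavage, also fell (-1.33 ± 0.38, adjusted p = 0.0418), a call lost without old replicates 1, 3, 4 or 5 or young replicates 2, 3 or 5, at an adjusted p of up to 0.0967. Intracellular modifiers such as Plod2 (-0.01), P4ha2 (0.03) and P4hb (0.14) were not called.

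Matrix glycoproteins had 1 gene higher and 1 lower of 35, with a median of -0.29. The lower one, the laminin chain Lamc1, lost its call without old replicates 1, 2 or 4 or young replicates 1, 2, 3 or 5, at an adjusted p of up to 0.0936. Matrix proteases and inhibitors had 1 lower of 23, the serine protease Htra1, whose call was lost without old replicate 1 or young replicates 1, 2, 3 or 5, at an adjusted p of up to 0.067. Of the 35 matrix glycoproteins, 9 had a difference above 0, and the 1 called higher was Ltbp1, which binds latent TGF-beta in the matrix. It measured 9.85, 10.79, 9.59, 10.30 and 10.90 in old muscle, against 8.94, 8.98, 8.80, 8.47 and 8.84 in young muscle (1.48 ± 0.24, adjusted p = 0.00227), with every old array above every young array. All 12 tested fibroblast markers had a difference below 0, with a median of -0.585, and -0.355 without old replicate 5. The 3 called were Col1a1, Col1a2 and Col3a1 again. The other markers, such as Dcn (-0.54) and Pdgfra (-0.28), were not called. The average of the 12 relative to the young mean lay between -2.29 and -0.29 in old muscle, against -1.11 to 0.75 in young muscle. The 4 tested markers of tendon cells, Tnmd, Thbs4, Fmod and Kera, had no call, and their average ranged from -2.97 to 1.71 in old muscle, against -2.07 to 2.49 in young muscle. Young replicates 1 and 4, the lowest for collagens, were also the lowest for the tenocyte markers. The part of tendon or fascia taken with the muscle in these differences was not tested.

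Promoter sequences were taken from RefSeq, whose table held 6134 of the 7300 named genes. The one of Col1a2 is shown because the largest falls were in type I collagen and CCAAT boxes are known to act in its promoter. It spans chr4:33518307-33518606 on the plus strand of build GRCr8, from 250 bases before to 50 after the gene start, in lower case with the CCAAT box (CCAAT on either strand) in capitals.
Col1a2: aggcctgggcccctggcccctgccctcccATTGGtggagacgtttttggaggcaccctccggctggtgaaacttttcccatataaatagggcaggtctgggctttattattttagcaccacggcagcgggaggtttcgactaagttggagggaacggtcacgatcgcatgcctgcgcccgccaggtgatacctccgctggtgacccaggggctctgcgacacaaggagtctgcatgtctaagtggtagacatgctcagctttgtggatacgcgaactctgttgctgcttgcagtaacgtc
The box, on the reverse strand, starts 221 bases before the gene start. The motif was present in 37.7% of all 27457 promoters, in 47.4% of the 230 matched promoters of genes higher in old muscle, in 37.8% of the 233 matched promoters of genes lower in old muscle and in 38.4% of the 6134 matched promoters of tested genes.

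**Figure D2:**
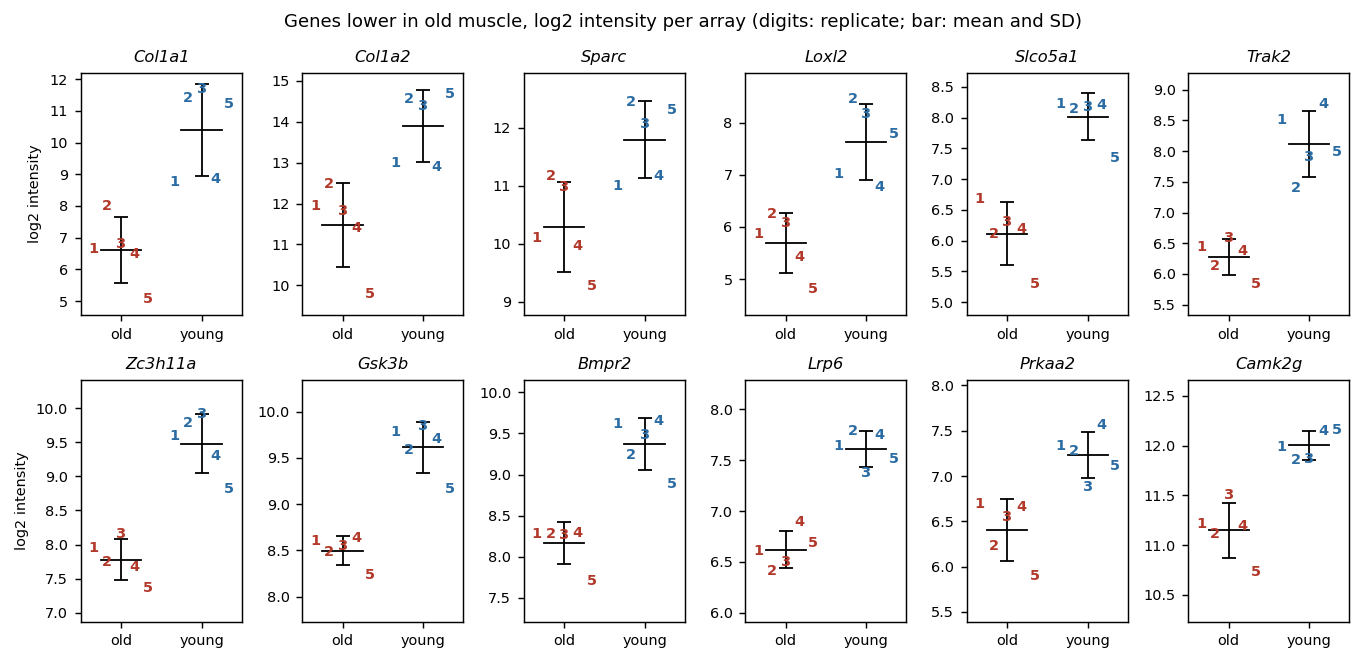
Log2 intensity per array of 12 genes called lower in old muscle, with old (red) left of young (blue). Digits mark the replicate, and bars the mean and SD (n = 5 each). Old replicate 5 was the lowest old array for Col1a1, Col1a2, Sparc, Loxl2 and Slco5a1, and young replicates 1 and 4 the lowest young arrays for the 4 matrix genes.

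Growth factor pathways that act on matrix and muscle had shares of calls near the 8.27% over all tested genes. These shares were 6.25% for TGF-beta, BMP and myostatin signalling and 8% for WNT and Notch signalling. Of 32 genes of TGF-beta, BMP and myostatin signalling, 2 fell and none rose, both BMP receptors. Bmpr2 measured 8.28, 8.28, 8.27, 8.29 and 7.71 in old muscle, against 9.62, 9.24, 9.48, 9.65 and 8.88 in young muscle (-1.21 ± 0.18, adjusted p = 0.00119), where 4 old arrays lay within 8.27 to 8.29 and old replicate 5 below them. Bmpr1a fell less (-0.57 ± 0.17, adjusted p = 0.0448), a call lost without old replicates 2, 3 or 5 or young replicates 1, 2 or 4, at an adjusted p of up to 0.112. Mstn, myostatin itself, was not called (-0.33). Of 25 genes of WNT and Notch signalling, Lrp6 and Notch1 fell, and the call of Notch1 was lost without old replicates 4 or 5 or young replicates 1, 3, 4 or 5, at an adjusted p of up to 0.0725. Lrp6, a WNT co-receptor, measured 6.61, 6.41, 6.50, 6.89 and 6.69 in old muscle, against 7.64, 7.79, 7.37, 7.75 and 7.51 in young muscle (-0.99 ± 0.12, adjusted p = 0.000355), and Tcf7l1, a transcriptional repressor of the same pathway outside that list, ranged over 5.20 to 6.14 in old muscle, against 6.87 to 7.72 in young muscle (-1.60 ± 0.23, adjusted p = 0.00103). Slco5a1, a transporter of the organic anion family with no settled substrate, measured 6.67, 6.11, 6.30, 6.19 and 5.29 in old muscle, against 8.22, 8.14, 8.17, 8.20 and 7.34 in young muscle (-1.90 ± 0.23, adjusted p = 0.000344), and replicate 5 was the lowest at both ages.

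Several glutathione transferases rose. Of 63 tested genes of glutathione metabolism and the NRF2 response, 7 rose (11.1%, against 3.85% higher over all tested genes) and none fell. Of the 7, 6 were glutathione transferases or microsomal relatives. These enzymes couple glutathione to electrophiles. Other transferases were not called, among them Gstp1 (-0.14), Gsto1 (-0.36) and Gstm3 (-0.10), and members of the mu class are alike in sequence, so their probes may not be specific. Gstm2 measured 10.03, 10.03, 10.06, 9.71 and 12.29 in old muscle, against 8.77, 8.14, 8.44, 8.91 and 8.97 in young muscle (1.78 ± 0.36, adjusted p = 0.00884), with old replicate 5 above the other 4, and the rise was 1.31 (adjusted p = 0.000163) without old replicate 5. Mgst1, a membrane-bound transferase, measured 9.72, 10.99, 10.70, 9.89 and 10.70 in old muscle, against 9.20, 8.25, 8.45, 8.93 and 9.17 in young muscle (1.60 ± 0.32, adjusted p = 0.00811). Gstt1 ranged over 5.51 to 6.86 in old muscle, against 4.81 to 5.32 in young muscle (1.08 ± 0.20, adjusted p = 0.00524), and Gstt2 over 9.56 to 10.64 in old muscle, against 8.99 to 9.29 in young muscle (0.75 ± 0.17, adjusted p = 0.0174). All 4 had no overlap between the ages.

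Less even members were Mgst2 (1.79 ± 0.51, adjusted p = 0.0437), with old replicate 1 lowest, old replicate 2 highest and a call lost without old replicates 2, 4 or 5 or young replicates 1, 2, 4 or 5, at an adjusted p of up to 0.0982, and Gstm1 (0.82 ± 0.24, adjusted p = 0.0491), with a call lost without old replicates 2, 3 or 4 or young replicates 1, 2, 3, 4 or 5, at an adjusted p of up to 0.0931. Nqo1, a quinone reductase and standard NRF2 target, rose to 9.33 to 9.93 in old muscle, against 8.74 to 9.33 in young muscle (0.50 ± 0.14, adjusted p = 0.0392), and lost its call without old replicates 1, 2 or 5 or young replicates 1, 4 or 5, at an adjusted p of up to 0.101. Other NRF2 targets were not called. The differences were 0.03 for Gclc and 0.31 for Gclm, the subunits that make glutathione, -0.19 for Hmox1, heme oxygenase, and 0.26 for Txnrd1. Superoxide dismutases and catalase had differences of 0.25 (Sod1), -0.48 (Sod2) and 0.30 (Cat), none past the threshold. The group median was 0.119, and 4 of its genes were called without young replicate 1, 4 or 5. The promoters of Gstm2, Mgst1 and Nqo1 held no match to the antioxidant response element (TGACNNNGC on either strand) within the same window. The motif was found in 12.2% of all promoters and in 15.3% of those of tested genes. Its share was 13.9% for genes higher and 17.2% for genes lower in old muscle.

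**Figure D3:**
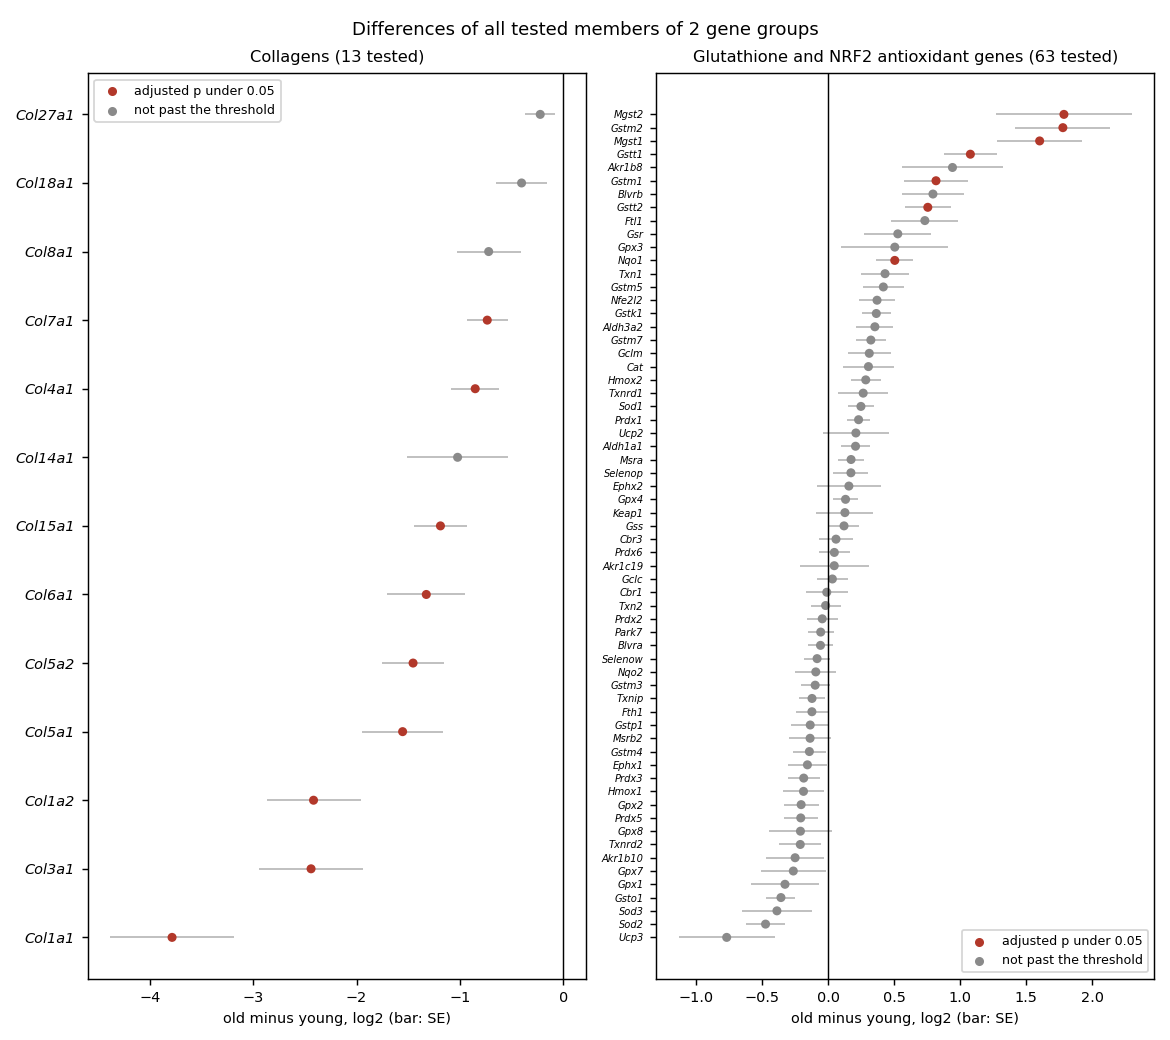
Old minus young log2 difference of each tested collagen (left) and each tested glutathione and NRF2 gene (right), with bars for the SE and called genes in red. All 13 collagens lay left of 0, while the antioxidant genes spread from -0.77 (Ucp3) to 1.79 (Mgst2) around a median of 0.119.

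Genes of metal handling moved in both directions, with 3 of 31 higher and 2 lower. The higher count was 0 without young replicate 4 and 1 without old replicate 2 or young replicate 1 or 5, with 2 lower in each. Mt1, metallothionein, a small protein that binds zinc and copper, measured 7.59, 11.41, 8.19, 9.78 and 13.08 in old muscle, against 6.66, 7.47, 7.65, 6.61 and 7.20 in young muscle (2.89 ± 0.77, adjusted p = 0.0331). Old replicates 1 and 3 were the lowest, with old replicate 1 within the young range, and the call was lost without old replicates 2 or 4 or young replicates 1, 2, 4 or 5, at an adjusted p of up to 0.0791. The difference was 2.12 (adjusted p = 0.0483) without old replicate 5. Cp, ceruloplasmin, and Heph, hephaestin, are copper-dependent ferroxidases. Cp rose to 5.78 to 5.95 in old muscle, against 4.71 to 5.65 in young muscle (0.73 ± 0.17, adjusted p = 0.0191, call lost without young replicate 4, at an adjusted p of up to 0.0513), and Heph rose by 0.61 ± 0.17, adjusted p = 0.039, a call lost without old replicates 1, 2 or 3 or young replicates 1, 3, 4 or 5, at an adjusted p of up to 0.097. Tfrc, the receptor that takes up iron-loaded transferrin, measured 6.88, 6.34, 7.29, 7.26 and 5.81 in old muscle, against 8.80, 7.34, 7.86, 8.97 and 8.67 in young muscle (-1.61 ± 0.35, adjusted p = 0.0125). Atp7a, a copper-exporting ATPase, fell to 5.46 to 6.24 in old muscle, against 6.19 to 7.08 in young muscle (-0.84 ± 0.17, adjusted p = 0.0092). Ferritin subunits were not called (Fth1 -0.12, Ftl1 0.73).

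The Mt1 promoter is shown because metallothionein transcription is driven through metal response elements, the binding sites of the zinc-sensing factor MTF-1. The window at chr19:10832926-10833225 on the minus strand of GRCr8 held 6 matches to TGCACNC or TGCGCNC on either strand, in capitals, the farthest starting 176 and the nearest 55 bases before the gene start.
Mt1: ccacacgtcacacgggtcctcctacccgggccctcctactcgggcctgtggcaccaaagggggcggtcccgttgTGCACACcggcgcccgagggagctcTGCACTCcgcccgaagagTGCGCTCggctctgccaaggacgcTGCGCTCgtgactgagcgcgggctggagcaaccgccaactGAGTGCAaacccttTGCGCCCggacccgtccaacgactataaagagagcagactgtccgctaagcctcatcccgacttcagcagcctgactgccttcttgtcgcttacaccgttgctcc
At least 1 match was present in 25% of all promoters and in 36.4% of those of tested genes. Mtf1 itself had a difference of -0.03 and was not called.

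Inflammatory genes rose in part. Of 49 genes of cytokines and the NF-kB pathway 5 rose and 1 fell (12.2% called). Of 22 chemokines and receptors 4 rose and 2 fell (27.3%), and of 34 genes of antigen presentation 4 rose and none fell (11.8%). Over all tested genes 8.27% were called. Without old replicate 2 the NF-kB list had 2 higher and 1 lower. It had 3 higher and 1 lower without young replicates 1, 2, 4 or 5. Among chemokine genes 1 was called higher without old replicate 4 or young replicates 1, 2, 4 or 5. Antigen presentation had 2 higher without old replicate 2 or young replicate 1 or 2, and 1 without young replicate 4. Ccl5, a chemokine of T cells and natural killer cells, measured 7.57, 6.92, 7.42, 7.06 and 6.19 in old muscle, against 5.20, 5.48, 6.05, 5.20 and 5.75 in young muscle (1.5 ± 0.23, adjusted p = 0.00176), without overlap. Ccl11, an eosinophil attractant, rose to 5.90 to 7.73 in old muscle, against 5.02 to 5.78 in young muscle (1.06 ± 0.29, adjusted p = 0.0351), with a call lost without old replicate 4 or young replicates 1, 2, 4 or 5, at an adjusted p of up to 0.0768. Nfkb2, the precursor of the p52 subunit of the non-canonical NF-kB pathway, measured 8.00, 8.83, 8.06, 8.46 and 8.04 in old muscle, against 7.53, 7.42, 7.12, 7.61 and 7.59 in young muscle (0.83 ± 0.18, adjusted p = 0.0132). Map3k14, the kinase that starts Nfkb2 processing, also rose (0.89 ± 0.26, adjusted p = 0.0454), a call lost without old replicates 2 or 5 or young replicates 1, 2, 3, 4 or 5, at an adjusted p of up to 0.0953. Nfkbia, the inhibitor that NF-kB induces as feedback, measured 10.93, 10.86, 10.83, 10.56 and 10.89 in old muscle, against 10.32, 10.39, 10.47, 9.92 and 10.41 in young muscle (0.51 ± 0.11, adjusted p = 0.0137), and Nfkb1, the canonical partner, was not called (0.04 ± 0.15, adjusted p = 0.892). Tab2, an adaptor that links cytokine receptors to the kinase above NF-kB, was the member that fell (-0.85 ± 0.14, adjusted p = 0.00317).

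The promoters of Nfkbia and Nfkb2 are printed because both genes are known targets of the pathway they belong to, and each held 1 match to the NF-kB consensus, in capitals. The first spans chr6:78597023-78597322 on the minus strand and the second chr1:255108124-255108423 on the plus strand of GRCr8.
Nfkbia: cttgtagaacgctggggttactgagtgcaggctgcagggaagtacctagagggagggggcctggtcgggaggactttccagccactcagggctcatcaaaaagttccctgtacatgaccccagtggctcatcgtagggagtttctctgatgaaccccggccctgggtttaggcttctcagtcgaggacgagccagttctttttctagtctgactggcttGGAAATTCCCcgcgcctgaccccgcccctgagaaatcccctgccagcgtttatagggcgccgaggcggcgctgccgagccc
Nfkb2: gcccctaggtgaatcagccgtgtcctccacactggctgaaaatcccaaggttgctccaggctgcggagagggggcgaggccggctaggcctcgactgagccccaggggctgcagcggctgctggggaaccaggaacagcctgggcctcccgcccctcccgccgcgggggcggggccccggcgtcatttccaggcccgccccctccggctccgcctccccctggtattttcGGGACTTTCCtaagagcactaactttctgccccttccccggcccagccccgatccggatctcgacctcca
The consensus, searched on both strands, was present in 4.16% of all promoters and in 4.66% of those of tested genes. It was present in 6.09% of those of genes higher and in 3.0% of those of genes lower in old muscle. The match started 31 bases before the start of Nfkbia and 20 bases before that of Nfkb2.

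The class I molecules of the rat major histocompatibility complex are close copies of each other, so a probe can bind more than 1, and their values are uncertain for that reason. RT1-CE15 ranged over 7.10 to 7.70 in old muscle, against 6.08 to 6.71 in young muscle (0.85 ± 0.17, adjusted p = 0.00678) and Tapbp, which loads peptides onto class I molecules, over 7.74 to 8.07 in old muscle, against 7.23 to 7.68 in young muscle (0.44 ± 0.10, adjusted p = 0.0191, call lost without young replicate 4, at an adjusted p of up to 0.0521). The group median was 0.274, and 0.447 without old replicate 5. Beside these results stand the immune cell markers. Of 6 tested lymphocyte and natural killer markers 3 were called higher, Ccl5, Nkg7 and Prf1, the last 2 being proteins of cytotoxic granules. Prf1 lost its call whichever of the 10 arrays was left out, at an adjusted p of up to 0.109. The list holds 32 genes, of which 24 had a probe and 6 were tested, and a marker could pass the detection filter through old arrays alone, so the count, which was 1 on leaving out old replicates 1, 2, 3 or 4 or young replicates 1, 2, 4 or 5 in turn, and the median do not stand for lymphocytes as a whole. Over genes detected on all 15 arrays the list's median was -0.203, against 0.754 for the 6. The value of -0.203 was the lowest difference among the 6, of which 5 were above 0. It thus does not stand for the list. The average of the 6 relative to young was 0.74, 0.93, 0.92, 0.70 and 0.15 on old replicates 1 to 5, with young arrays at most 0.25. Nkg7 measured 6.52, 6.51, 6.64, 6.61 and 5.17 in old muscle, against 4.93, 5.02, 5.49, 4.80 and 4.95 in young muscle (1.25 ± 0.35, adjusted p = 0.039), and the rise was 1.53 (adjusted p = 0.0098) without old replicate 5. Its call was lost without old replicates 1, 2, 3 or 4 or young replicates 1, 2, 4 or 5, at an adjusted p of up to 0.0868. Of 21 macrophage markers none was called, with a median of 0.368. Of 38 interferon response genes 2 rose and 1 fell (7.89% called, near the 8.27% over all tested genes). The interferon list had no call without old replicate 2 or young replicate 1 or 4. It had 1 lower without old replicate 1 or 5 and 1 higher without young replicate 3. A macrophage marker was called without old replicate 1 or 3. Tnf, Il6, Il10 and Ptgs2 were not detected on any of the 15 arrays. The part of immune cells in these differences was not tested.

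Some regulators of mitochondria fell, the energy-sensing kinase AMPK among them. Of 37 genes of mitochondrial biogenesis 7 fell (4.42% over all genes), 4 without old replicate 1 or 2, 3 without young replicate 1 or 5 and 2 without young replicate 4, and 1 rose, the growth-related transcription factor Myc (1.40 ± 0.33, adjusted p = 0.0191). Ppargc1b, a coactivator that drives mitochondrial genes, measured 5.96, 5.77, 5.77, 5.79 and 4.67 in old muscle, against 6.96, 6.18, 6.88, 6.73 and 6.29 in young muscle (-1.02 ± 0.21, adjusted p = 0.0106), and its relative Ppargc1a fell (-1.04 ± 0.29, adjusted p = 0.0414), a call lost without old replicate 2 or young replicates 1, 2, 3 or 4, at an adjusted p of up to 0.0966. Prkaa2, the catalytic subunit of the AMP-activated kinase that prevails in muscle, measured 6.69, 6.23, 6.55, 6.66 and 5.89 in old muscle, against 7.33, 7.28, 6.88, 7.56 and 7.11 in young muscle (-0.83 ± 0.15, adjusted p = 0.00554), without overlap. Prkab2, the beta subunit, fell by a smaller amount (-0.62 ± 0.16, adjusted p = 0.029, call lost without old replicates 1 or 5 or young replicates 1, 4 or 5, at an adjusted p of up to 0.0738), as did Prkaa1 (-0.54 ± 0.16, adjusted p = 0.045, call lost without old replicates 1, 2, 3 or 4 or young replicates 1, 2, 4 or 5, at an adjusted p of up to 0.106). The gamma subunits Prkag1 (0.12), Prkag2 (0.05) and Prkag3 (-0.20) were not called. Tfam, which packages mitochondrial DNA, had a difference of 0.12.

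Trak2, an adaptor that ties mitochondria to kinesin motors, measured 6.43, 6.13, 6.59, 6.37 and 5.83 in old muscle, against 8.51, 7.40, 7.91, 8.77 and 7.98 in young muscle (-1.84 ± 0.23, adjusted p = 0.000387), with no overlap. Trak1 fell less (-0.61 ± 0.16, adjusted p = 0.0336), with a call lost without old replicates 1, 4 or 5 or young replicates 1, 2 or 3, at an adjusted p of up to 0.0666. Of the 35 genes of mitochondrial dynamics, transport and mitophagy, 3 fell and 3 rose, or 1 fell and 2 rose without old replicate 5 or young replicate 1. The risers were Kif5a, a kinesin heavy chain of neurons (0.62 ± 0.14, adjusted p = 0.0156), and Micos13 (0.44 ± 0.098, adjusted p = 0.0152) and Chchd6 (0.67 ± 0.17, adjusted p = 0.0276), subunits of the cristae complex. Chchd6 lost its call without old replicates 2, 4 or 5 or young replicates 1 or 5, at an adjusted p of up to 0.0693. Fusion and fission genes were not called, with differences of -0.14 for Mfn1, -0.34 for Mfn2, -0.39 for Dnm1l and -0.17 for Fis1. Of 27 tested genes of complex I, 24 of complexes II to IV with cytochrome c and 21 of ATP synthase with the adenine nucleotide carriers none was called. Without old replicate 3, the calls were 4, 1 and 2, all lower. The medians of the 3 lists were -0.278, -0.139 and -0.159, and -0.103, -0.0257 and -0.0493 without old replicate 5. In the tricarboxylic acid cycle group 2 of 37 fell, Dlat, of the pyruvate dehydrogenase complex, and Pdk1, the kinase that restrains it. The call of Dlat was lost without old replicates 1, 2 or 5 or young replicates 1, 4 or 5, at an adjusted p of up to 0.0925, and that of Pdk1 without young replicate 4, at an adjusted p of up to 0.0557.

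Chains of calmodulin-dependent kinase II fell. Of 42 genes of calcium handling and excitation 3 fell and 2 rose, with a median of -0.227. Camk2g, the gamma chain of kinase II, measured 11.21, 11.11, 11.50, 11.19 and 10.73 in old muscle, against 11.99, 11.86, 11.87, 12.15 and 12.16 in young muscle (-0.86 ± 0.14, adjusted p = 0.00188), and Camk2b, the beta chain, ranged over 9.84 to 10.73 in old muscle, against 11.01 to 11.34 in young muscle (-0.78 ± 0.16, adjusted p = 0.00856). Cacna2d1, an accessory subunit of the voltage sensor channel, ranged over 12.70 to 13 in old muscle, against 13.29 to 13.58 in young muscle (-0.54 ± 0.093, adjusted p = 0.00334). None of the 3 overlapped between the ages. Itpr1, a calcium release channel of the reticulum, rose (0.43 ± 0.12, adjusted p = 0.0372), with a call lost without old replicates 1, 3 or 4 or young replicates 1, 2, 4 or 5, at an adjusted p of up to 0.0947. In the sarcomere, Ldb3, a Z-disc protein, fell to 11.43 to 12.43 in old muscle, against 12.51 to 13.04 in young muscle (-0.80 ± 0.16, adjusted p = 0.00884). Tnnt3, fast troponin T, was the 1 called gene of 20 fast fibre genes (-1.02 ± 0.29, adjusted p = 0.0417), and lost its call without old replicates 2, 3, 4 or 5 or young replicates 2, 3, 4 or 5, at an adjusted p of up to 0.0954. Sspn, sarcospan of the dystrophin complex, measured 9.99, 9.80, 10.05, 9.87 and 8.74 in old muscle, against 10.65, 10.78, 10.76, 10.38 and 10.73 in young muscle (-0.97 ± 0.20, adjusted p = 0.00842), and the difference was -0.73 (adjusted p = 0.000822) without old replicate 5.

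In insulin and IGF signalling 2 of 31 genes rose and 3 fell (16.1% called, against 8.27% over all tested genes). The counts were 1 and 2 without old replicate 2, and 1 and 1 without young replicate 1 or 4. In glycogen metabolism 2 of 20 fell, Gsk3b and Phka1, and Phka1, a chain of phosphorylase kinase, lost its call without old replicates 1, 2, 4 or 5 or young replicates 1, 4 or 5, at an adjusted p of up to 0.106. Gsk3b, the kinase that insulin restrains to allow glycogen synthesis, belongs to both and measured 8.60, 8.48, 8.55, 8.63 and 8.23 in old muscle, against 9.78, 9.58, 9.84, 9.70 and 9.16 in young muscle (-1.11 ± 0.15, adjusted p = 0.000754), while Gsk3a was not called (-0.06 ± 0.17, adjusted p = 0.847). Sh2b2, which binds the activated insulin receptor, rose to 8.99 to 9.45 in old muscle, against 8.02 to 9.02 in young muscle (0.78 ± 0.18, adjusted p = 0.0155). Igf2, a growth factor of muscle development, rose (0.83 ± 0.24, adjusted p = 0.043), and Slc2a4, the glucose transporter that insulin brings to the surface, fell (-0.44 ± 0.13, adjusted p = 0.0442). Both calls failed on leaving out single arrays, that of Igf2 without old replicates 2 or 5 or young replicates 1, 3, 4 or 5, at an adjusted p of up to 0.0966 and that of Slc2a4 without old replicates 2, 3, 4 or 5 or young replicates 1, 2, 3, 4 or 5, at an adjusted p of up to 0.105. Pkm, pyruvate kinase, fell (-0.81 ± 0.21, adjusted p = 0.0315), with a call lost without young replicates 1, 4 or 5, at an adjusted p of up to 0.0694. Akt1 (0.11), Akt2 (0.03) and Insr (0.18) were not called. Foxo1 was not analysed here.

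In protein turnover, the cytosolic ribosomal proteins had 7 of 56 genes called higher and 1 lower, and their median was 0.228. Leaving out an array left 2 higher and none lower for old replicate 5, 5 higher for old replicate 4, 4 for young replicate 3, 1 for old replicate 2 or young replicate 1, and no call for young replicate 4 or 5. Rpl32 ranged over 14.39 to 14.88 in old muscle, against 13.94 to 14.32 in young muscle (0.44 ± 0.11, adjusted p = 0.023, call lost without young replicates 1, 4 or 5, at an adjusted p of up to 0.0649). Ribosomal protein genes have many processed copies in mammals, so these probes may not be specific. Of 50 genes of mTOR and translation control 1 fell, the elongation factor kinase Eef2k, whose call was lost without old replicates 2, 4 or 5 or young replicates 1, 2, 3 or 4, at an adjusted p of up to 0.0988. Of 42 proteasome genes none was called (median 0.214, 0.116 without old replicate 5), and 1 was called without old or young replicate 3. Among 39 ubiquitin ligase and atrophy genes 3 rose and 1 fell, with 1 higher without old replicate 2 or 4 or young replicates 1, 2, 4 or 5. None was called lower without old replicates 1, 2 or 3 or young replicates 1, 4 or 5. Without old replicate 5 the list had 2 higher and 2 lower. Fbxo32, the atrophy ligase atrogin-1, measured 7.21, 8.08, 7.42, 7.71 and 10.31 in old muscle, against 9.26, 8.84, 9.71, 9.17 and 9.52 in young muscle (-1.16 ± 0.42, adjusted p = 0.1), so that 4 old arrays lay below all young arrays and old replicate 5 above them. The difference and adjusted p of Fbxo32 include old replicate 5 and are not given without it. Trim63, the partner ligase, had a difference of 0.40 ± 0.37, adjusted p = 0.522. These 2 genes were chosen after their values were seen. Asb5, a substrate subunit of ubiquitin ligases, rose (0.57 ± 0.13, adjusted p = 0.0152), as did Cd63, a lysosomal membrane protein, among 62 autophagy and lysosome genes (0.60 ± 0.14, adjusted p = 0.015). In that list 3 rose and 1 fell (6.45% called, against 8.27% over all tested genes). There were 2 higher without old replicate 1 and 1 without old replicate 2 or young replicates 1, 4 or 5.

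Chaperones had 5 of 50 members higher and 2 lower (14% called, against 8.27% over all tested genes). Without old replicate 5 or young replicate 2 it was 2 higher and 2 lower, without young replicate 1 it was 2 and 1, without young replicate 3 it was 3 and 1, and without old replicate 2 or 4 or young replicate 4 or 5 it was 1 and 1. Hspa4l, a nucleotide exchange factor of the heat shock proteins, measured 7.38, 7.03, 7.28, 7.45 and 7.01 in old muscle, against 6.00, 6.29, 5.70, 5.68 and 5.99 in young muscle (1.30 ± 0.15, adjusted p = 0.000271), without overlap. Hspa2, a member of the same family best known from testis, went the other way and measured 6.01, 5.63, 5.34, 5.79 and 5.37 in old muscle, against 6.09, 7.52, 6.83, 7.35 and 7.56 in young muscle (-1.44 ± 0.24, adjusted p = 0.00272). Hsp90aa1, the inducible cytosolic chaperone, rose (0.74 ± 0.20, adjusted p = 0.0377), with a call lost without old replicates 1, 2, 4 or 5 or young replicates 1, 4 or 5, at an adjusted p of up to 0.0846. Of 32 endoplasmic reticulum stress genes 1 rose, Creld2 (0.43 ± 0.11, adjusted p = 0.029), and lost its call without old replicates 2 or 4 or young replicates 1, 2, 4 or 5, at an adjusted p of up to 0.0708.

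Of 16 clock genes 2 rose and none fell (12.5%, against 3.85% higher over all tested genes). Per1 and Per2 encode repressors that close the daily feedback loop. Per1 measured 9.43, 9.00, 8.74, 8.58 and 10.65 in old muscle, against 8.56, 7.45, 7.02, 8.31 and 8.41 in young muscle (1.33 ± 0.39, adjusted p = 0.0449) and Per2 10.46, 9.18, 9.22, 9.35 and 10.73 in old muscle, against 8.59, 8.84, 8.12, 9.09 and 8.85 in young muscle (1.09 ± 0.29, adjusted p = 0.0315). For both, old replicates 1 and 5 were the highest, and every old array lay above every young array. The call of Per1 was lost without old replicates 1, 2 or 5 or young replicates 1, 2, 3, 4 or 5, at an adjusted p of up to 0.0928, and that of Per2 without old replicates 1 or 5 or young replicates 1, 3 or 5, at an adjusted p of up to 0.0671. Bmal1, the activator they oppose, had a difference of -0.63 ± 0.27, adjusted p = 0.155, Cry1 of -0.24, Dbp of 0.16 and Nr1d1 of -0.47. The hour of tissue collection is not given in the sources used here, and its part was not tested. Neither promoter held the E-box CACGTG in the window shown for other genes. The motif was found in 6.65% of all promoters and in 9.6% of those of tested genes. Tsc22d3 and Fkbp5, which glucocorticoids are known to induce, fell in the list of immediate early and stress factors. Tsc22d3 ranged over 11.99 to 12.32 in old muscle, against 12.63 to 12.75 in young muscle (-0.56 ± 0.10, adjusted p = 0.00547), and Fkbp5 over 9.09 to 10.43 in old muscle, against 9.89 to 10.50 in young muscle (-0.69 ± 0.19, adjusted p = 0.0396), a call lost without old replicates 1, 2, 3 or 4 or young replicates 1, 3, 4 or 5, at an adjusted p of up to 0.0937. In that list 4 of 41 rose and 5 fell, among them Dusp3, a phosphatase of mitogen-activated kinases (-1.35 ± 0.19, adjusted p = 0.000869). The counts were 1 and 4 without young replicate 4 and 1 and 5 without young replicate 1. They were 2 and 4 without old replicate 2 or young replicate 5, and 2 and 5 without young replicate 2 or 3. Without old replicate 5 they were 2 and 6.

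Markers of fat cells rose in 3 of 17 (17.6%, against 3.85% higher over all tested genes) and fell in none, with a median of 0.592. The called genes were 2 without old replicate 2 or young replicate 4. They were 4 without old replicate 1 or young replicate 3, and 5 without old replicate 4. The 3 include Cidea, which passed the detection filter without a young array. Their average relative to the young mean was 0.33, 1.21, 0.82, 0.38 and 0.77 on old replicates 1 to 5, with young arrays between -0.28 and 0.21. All old arrays lay above all young arrays. Pck1, an enzyme of glycerol and glucose synthesis, measured 6.16, 8.49, 7.66, 6.96 and 7.30 in old muscle, against 5.95, 5.55, 5.73, 5.60 and 5.45 in young muscle (1.66 ± 0.35, adjusted p = 0.0103), and Cidec, a lipid droplet protein, ranged over 6.53 to 7.31 in old muscle, against 5.43 to 6.20 in young muscle (1.07 ± 0.23, adjusted p = 0.0106). Cidea, its relative, was not detected on any young array and was at least 1.69-fold higher in old muscle (1.0 ± 0.24, adjusted p = 0.0211), a call lost without old replicate 2 or young replicate 4, at an adjusted p of up to 0.0517. Adipoq, the adipokine that defines the cell type, was higher on all old arrays but missed the threshold (1.39 ± 0.45, adjusted p = 0.067). Markers of endothelium (none of 10 called, median -0.133), smooth muscle (Abcc9 of 8 lower, median -0.073, call lost without old replicate 5 or young replicates 1, 2, 4 or 5, at an adjusted p of up to 0.072), Schwann cells (Cdh19 of 12 lower, median -0.118, call lost without young replicate 4, at an adjusted p of up to 0.054) and granulocytes or mast cells (none of 6 called, median 0.298) had few or no calls. The 7 tested red blood cell markers had a median of 0.81, 0.236 without old replicate 5, and their 1 call was Tfrc.

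**Figure D4:**
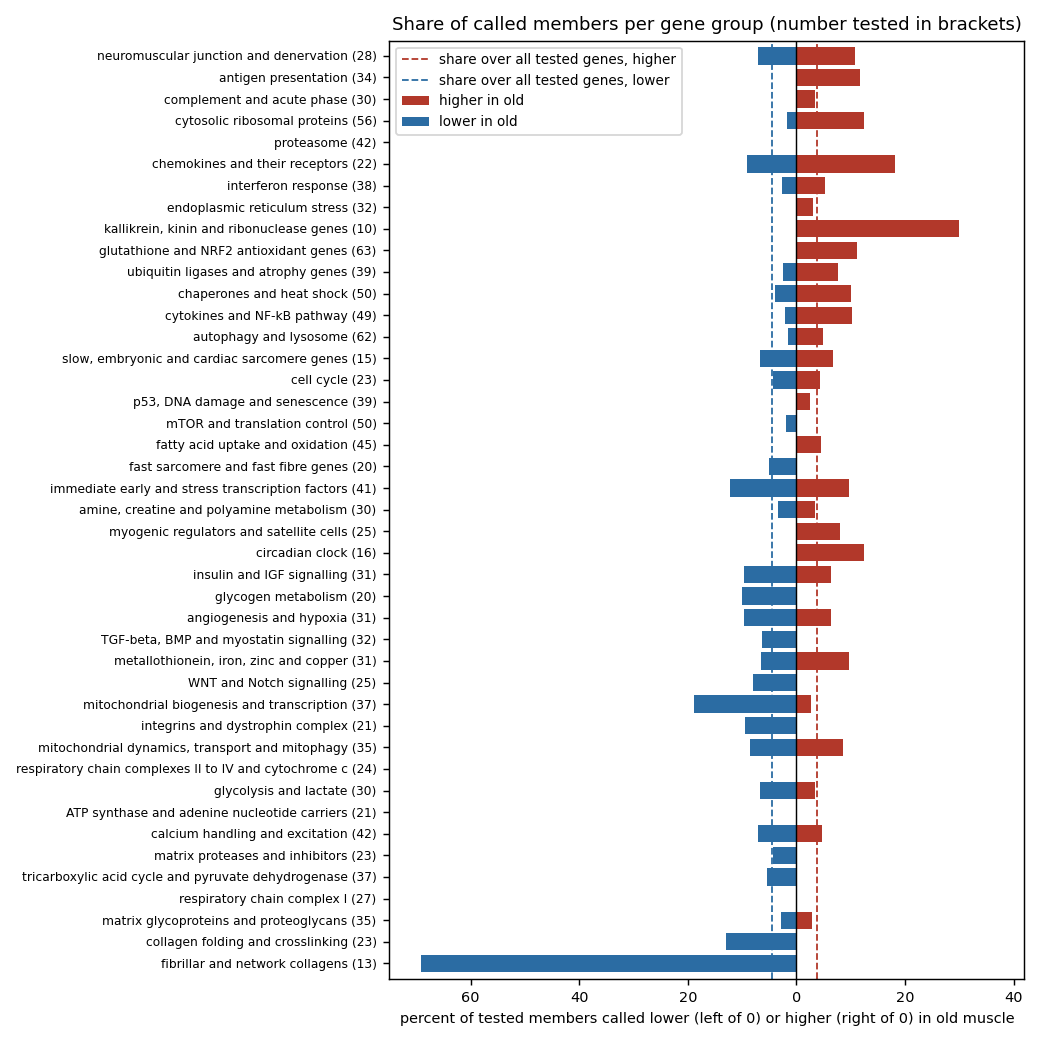
Percent of tested members called higher (red, right of 0) or lower (blue, left of 0) in old muscle for 43 groups of genes, ordered by median difference, with dashed lines for the 3.85% and 4.42% over all tested genes. Collagens stand apart with 69.2% lower, and the respiratory chain, ATP synthase and proteasome groups have no called member.

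The middle-aged arrays place these differences in time, as levels beside the comparison. For 722 of the 829 called genes the middle-aged mean lay between the old and young means, 333 of the genes that rose and 389 of those that fell. Over all tested genes it was so for 4033 of 10021 (40.2%), and the called genes had been chosen for a difference between the outer ages, so the counts are a description. Some genes stood midway. Col1a1 averaged 8.34 at 17 months, Slco5a1 7.33 and Trak2 7.36. Others were already at the level of old muscle. Hspa4l averaged 7.26 at 17 months, against 7.23 in old and 5.93 in young muscle, Myod1 averaged 11.81, against 11.68 in old and 10.67 in young muscle, and Hspa2 averaged 5.79, against 5.63 in old and 7.07 in young muscle. Klk1 averaged 7.84 at 17 months. These values share the young and old arrays of the comparison and were not tested here.

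**Figure D5:**
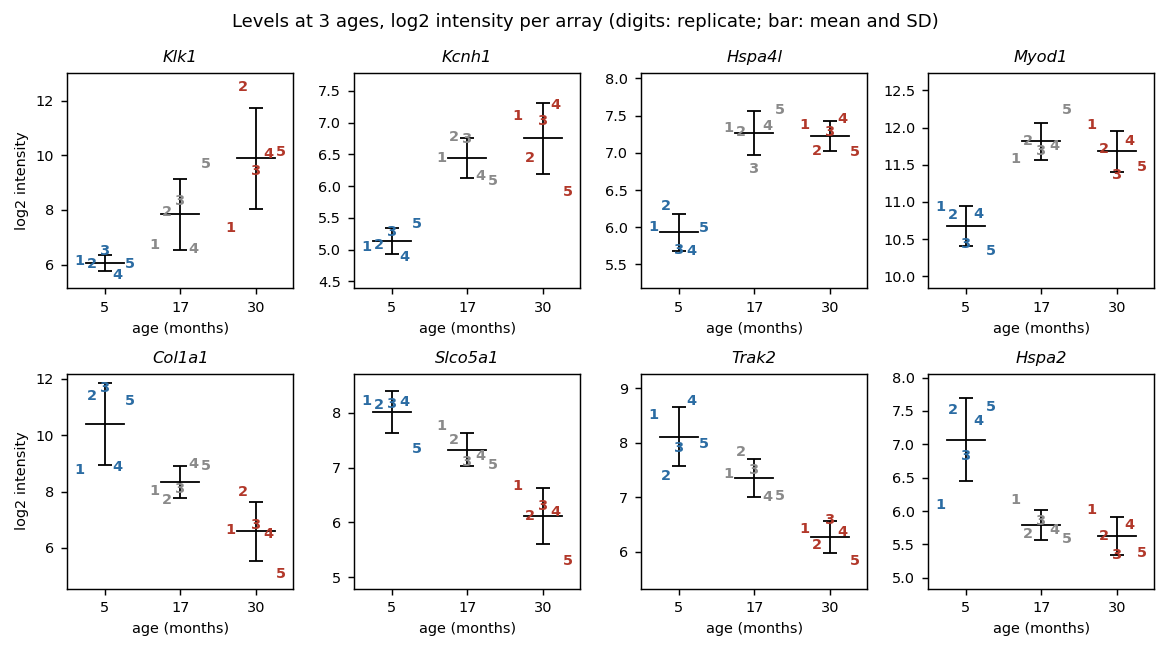
Log2 intensity per array at 5, 17 and 30 months (n = 5 each), with digits for the replicate and bars for the mean and SD. Hspa4l, Myod1 and Hspa2 were near their 30-month level at 17 months, while Col1a1, Slco5a1, Trak2 and Klk1 lay between.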

How the data were processed

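Total RNA of vastus lateralis was hybridized by the authors to Illumina RatRef-12 BeadChips, 1 array per rat, and read with GenomeStudio 2011.1 according to the submitters' processing notes. The deposited non-normalized table held a summarised signal intensity and a detection p-value per probe for 22523 probes on 15 arrays. A second table deposited by the authors held Z scores, which matched natural log intensities centred and scaled within each array to within 0.00727 and served as an alternative. Intensities were background-corrected and quantile normalized with neqc of limma 3.58.1 in R 4.3.3, with an offset of 16. Probes with a detection p-value under 0.05 on at least 5 arrays were kept (10158), and the brightest probe stood for a symbol, which left 10021 genes, 7300 with a symbol and 2721 known by probe only. In the table of probes, 13793 had 1 symbol and 8730 none. A limma model over all 15 arrays with age as the factor gave old minus young, with 12 residual and 4.04 prior degrees of freedom. Benjamini-Hochberg adjustment covered every tested gene. Where a gene was not detected on any array of an age, its fold is given as a lower bound, with the lowest signal among detected probes of each array as the floor. The fit was tested on simulated arrays with known changes. No counts exist for arrays, so their number limits the precision.

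Genes named were the 12 largest rises and 12 largest falls among called genes with a symbol, up to 8 called genes per list by adjusted p-value or the 2 lowest where none was called, genes the study measured by other methods, and others marked in the text or given as uncalled members. Members and lists were chosen with earlier results of these data known. Alternatives were the Z scores, other normalization, offset, filter, probe rule, arrays in the fit, array weights, a replicate block, single arrays left out and the methods' t-test. Promoters are RefSeq's for GRCr8.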

Additional observations from a re-analysis of the deposited data

Results flagged for a closer look

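For 356 groups of 5 arrays, the highest and lowest array of each named gene was set against the rest of its group, and 27 groups had 1 array far from the other 4. Chance alone would set apart about 1 in 20 groups. Of the 27, 18 were in old muscle and 9 in young muscle, and 14 were on old replicate 5. Values are log2 intensities.

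On old replicate 5, Bnip3 (14.89), Cct6a (12.58), Gstm2 (12.29), Psmb3 (12.99) and Sat2 (8.97) lay far above the other old arrays. Far below them on the same array lay Atp5f1d (12.25), Bmpr2 (7.71), Camk2b (9.84), Nkg7 (5.17), Nrep (5.26), Pkm (11.43), Ppargc1b (4.67), Sdhd (12.33) and Sspn (8.74). Hdac4 (7.77) lay above the others on old replicate 2, and Cp (5.95) lay above the others on old replicate 3. Dnm1l (8.11) lay above the others on old replicate 4, and Nfkbia (10.56) lay below the others on old replicate 4. Cst7 (9.96) and Klk1c9 (5.96) lay above the others on young replicate 1, and Fkbp5 (9.89) lay below the others on young replicate 2. Abcc9 (10.96), Cct6a (11.24) and Colq (5.27) lay below the others on young replicate 3, and Nfkbia (9.92) lay below the others on young replicate 4. Cdkn1a (5.46) lay above the others on young replicate 5, and Slco5a1 (7.34) lay below the others on young replicate 5. Flags on 1 array are not independent of each other, since the genes share its RNA.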

How the results depend on the processing

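Of all tested genes, 829 were called, with 386 genes higher in old than young, 443 genes lower in old than young and 154 genes changed between old and young by at least 2-fold. No named gene that was called, with all arrays or under the alternative, changed sign. Uncalled genes near 0 did, such as Nfkb1, at 0.04 with all arrays and -0.06 without old replicate 5. In 837 cases a named gene lost its call under 1 setting, in 17 it gained one, and in 12 a list's median moved by more than the spread. Fitting the old and young arrays alone gave 143 higher and 235 lower, and 370 of the 829 remained. Without old replicates 2 and 5 together 152 were higher, 199 lower and 92 changed at least 2-fold. The 2-fold count was 57 with quantile normalization without background correction and 87 with an offset of 50. The methods' t-test on Z scores called 840 higher and 1095 lower at their unadjusted threshold, and 59 higher and 170 lower after Benjamini-Hochberg. Leaving out single arrays gave 163 to 438 higher, 268 to 472 lower and 123 to 171 changed at least 2-fold, with 163 higher and 268 lower without young replicate 4, 182 and 271 without young replicate 1, 200 and 317 without young replicate 5, and 232 and 305 without old replicate 2. The deposited Z scores in the same model called 320 higher and 449 lower (654 shared). The median of the lymphocyte and natural killer markers was -0.203 when only genes detected on all 15 arrays were kept, against 0.754. The first value equals the lowest difference among the 6 tested markers, of which 5 were above 0, so it does not stand for the list. The cause of these shifts was not tested.

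With the replicate number as a block, the count of genes higher in old than young was 308, that of genes lower in old than young 388 and that of genes changed between old and young by at least 2-fold 149, and 637 of the 829 remained. Old and young arrays of the same number correlated in their deviations at 0.0211, 0.318, 0.117, 0.292 and 0.196, and 3 of 5 old arrays correlated best with the young array of their number, while 1 of the 5 pairs was near 0, so the numbers were not taken as pairing the rats. Of 148 named genes that were called, 33 lost the call with the block.

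The number of arrays limits the precision, with 5 per age and a median SE of 0.141. Of the genes called higher 22 were not detected on any young array and of those called lower 9 on no old array, so their sizes depend on the floor. The BeadChip of each array is not given in the sources used here. Unadjusted p-values under 0.05 numbered 2532.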

Other observations

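The families below were formed by symbol and chosen after their values were seen, so they are given as values. Over all tested genes 3.85% were called higher and 4.42% lower. The family counts were not recounted with single arrays left out. Some members lay near the threshold, such as Srsf11 (adjusted p = 0.0463) and Rpa2 (adjusted p = 0.0496). Among 19 tested serine/arginine-rich splicing factors and their partners, 8 were called higher and none lower in old muscle (42.1%), with a median of 0.334 against 0.00015 over all genes. Tra2a, a splicing activator, measured 10.30, 10.47, 10.42, 10.31 and 10.80 in old muscle, against 9.70, 9.80, 9.85, 9.73 and 9.84 in young muscle, a difference of 0.68 ± 0.12 with no overlap (adjusted p = 0.00514). Clk1, a kinase of these factors, differed by 0.56 and Srsf7 by 0.45.

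Genes of the DNA replication fork showed 8 of 30 higher and none lower (26.7%, against 3.85% higher over all tested genes, median 0.205). The 8 include Gins1, which was detected on 5 old, 0 middle-aged and 0 young arrays. Gins1 thus passed the detection filter through the old arrays alone, and the lower bound of its fold was 1.04. Gmnn, the licensing inhibitor geminin, measured 7.25, 7.31, 7.21, 7.40 and 7.61 in old muscle, against 6.74, 6.93, 6.43, 6.65 and 6.50 in young muscle, a difference of 0.70 ± 0.11 (adjusted p = 0.00166). Prim1, a primase subunit, ranged over 7.92 to 8.36 in old muscle and 7.11 to 7.63 in young muscle, with a difference of 0.69 ± 0.12 (adjusted p = 0.00402). Of the 23 genes of the cell cycle list, Pcna rose and Ccnd1 fell, and the call of Ccnd1 was lost without old replicate 4 or young replicates 2, 3, 4 or 5, at an adjusted p of up to 0.0646.

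Chromatin regulators of the Polycomb, trithorax and DNA methylation group had 1 of 17 higher and 3 lower. Kdm6b, a histone demethylase, measured 7.34, 6.78, 6.71, 7.19 and 6.58 in old muscle, against 8.27, 7.97, 8.20, 8.15 and 7.81 in young muscle, a difference of -1.16 ± 0.15 (adjusted p = 0.000387). Dnmt3a, a DNA methyltransferase, measured 8.55, 8.05, 8.54, 8.62 and 7.57 in old muscle, against 9.66, 9.83, 9.40, 9.42 and 9.14 in young muscle, a difference of -1.22 ± 0.19 (adjusted p = 0.00176). Neither overlapped between the ages.

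Kelch-like proteins, many of them adaptors of ubiquitin ligases, had 4 of 18 lower and none higher. Klhl24 measured 10.59, 10.76, 10.94, 10.93 and 10.70 in old muscle, against 11.93, 11.59, 11.75, 11.88 and 11.73 in young muscle, a difference of -0.99 ± 0.11 (adjusted p = 0.000249). Cyclic nucleotide phosphodiesterases split, with Pde7a (1.38) and Pde2a (0.54) higher and Pde4a and Pde4d lower. The call of Pde2a was lost without old replicates 2, 3 or 5 or young replicates 1, 2, 3 or 5, at an adjusted p of up to 0.0846. Pde4d measured 7.95, 6.55, 7.31, 7.48 and 8.53 in old muscle, against 9.23, 8.48, 9.23, 8.97 and 8.56 in young muscle. Of 142 solute carriers 1 was higher and 5 lower (4.23%), and of 63 olfactory and taste receptor genes none was higher and 6 lower (9.52%).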
